A study of Mus musculus with 42 samples.

Results

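Open chromatin was examined in the triplicated segment of Ts65Dn mice, which lies on mouse chromosome 16 from 84717576 to 98082450 and on chromosome 17 from 3042024 to 8986648 (mm10). All peaks of 3 deposited ATAC-seq lists, 1 per genotype, that fell within these coordinates were taken. They numbered 156 of 15521 peaks in the euploid list, 390 of 29195 in the Ts65Dn list and 473 of 30244 in the Ts65Dn;Brwd1+/- list. Peaks that overlapped by at least 1 bp were joined into loci, which gave 524 segment loci (335 on chromosome 16, 189 on chromosome 17) of 35573 in the genome.

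Ts65Dn mice carry a small extra chromosome that holds the distal end of chromosome 16, whose genes have counterparts on human chromosome 21, joined to the centromeric end of chromosome 17, whose genes do not. The mice are a standard model of Down syndrome. ATAC-seq uses a transposase that inserts sequencing adapters into accessible DNA, so that promoters and enhancers in use appear as peaks of reads over the surrounding background. A peak caller scores the reads at a peak against those of its surroundings, and the ratio of both is the fold enrichment.

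The nuclei came from hippocampus of male mice aged 6 weeks, sorted for the neuronal nuclear antigen NeuN, and 3 libraries per genotype had been made. Euploid mice, Ts65Dn mice and Ts65Dn;Brwd1+/- mice were offspring of Ts65Dn females and males heterozygous for the repro5 mutant allele of Brwd1, a chromatin reader gene that itself lies in the chromosome 16 portion. All 3 groups shared a mixed DBA/2J and B6EiC3Sn/J background. The design returns this gene to its normal dosage in an otherwise trisomic brain, so the Ts65Dn;Brwd1+/- mice remained trisomic for every other segment gene. The extra chromosome covers both portions at once, so effects of the chromosome 16 genes and of the chromosome 17 genes cannot be told apart in these mice. The same series gave SMARCA2/4 ChIP-seq of hippocampus from male mice aged 6 to 8 weeks, 4 immunoprecipitated libraries per genotype, and RNA-seq of embryonic day 16 forebrain neuronal cultures, 3 libraries per genotype. Per the methods, each ChIP-seq replicate pooled hippocampal tissue of a pair of animals.

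The ATAC-seq libraries of each genotype had been reduced to 1 list before deposit, so no replicate error could be had and no test between genotypes was made on them. Exact binomial 95% intervals are given for shares and cover counting error only. The trisomic lists were 1.88 and 1.94 times as long as the euploid list outside the segment, and each segment value is therefore set beside that of the rest of the genome. Promoters of 8, 10 and 10 of 10 neuronal markers were open in euploid, Ts65Dn and Ts65Dn;Brwd1+/- nuclei. Of 28 markers of interneurons, astrocytes, oligodendrocyte lineage, microglia and endothelium, 2, 3 and 1 had a promoter peak in the same order, namely Pdgfra and Aif1 in the euploid, Dlx1, Aldh1l1 and Mbp in the Ts65Dn and Aldh1l1 in the Ts65Dn;Brwd1+/- list, at a fold enrichment of 3.02 to 4.07. Gfap, Mog and Cx3cr1 were among those with none.

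The 5 sequences shown are the central 200 bases of loci on which the results turn, read on the plus strand of GRCm38 (mm10). Morc3 and Tfb1m had the strongest euploid peaks of the chromosome 16 and chromosome 17 portions. The Erg locus had the highest Ts65Dn to euploid ratio on chromosome 16, the Pde10a locus had the lowest on chromosome 17, and the Rsph3a locus led those open in both trisomic lists and not the euploid list. Capitals mark matches to the motifs searched, on either strand, which in these windows were those of the CCAAT box, of the E-box (letters CAGATG) and of the ETS core (letters CCGGAAG).
Morc3, chr16:93832289-93832488: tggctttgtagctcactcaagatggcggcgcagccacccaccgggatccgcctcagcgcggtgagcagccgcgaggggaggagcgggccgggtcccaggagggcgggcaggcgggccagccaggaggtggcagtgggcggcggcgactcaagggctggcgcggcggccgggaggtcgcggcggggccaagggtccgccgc
Erg, chr16:95390897-95391096: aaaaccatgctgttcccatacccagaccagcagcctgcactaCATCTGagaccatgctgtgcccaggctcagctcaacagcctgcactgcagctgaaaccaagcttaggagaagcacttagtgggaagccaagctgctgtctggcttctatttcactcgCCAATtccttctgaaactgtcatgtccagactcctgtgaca
Tfb1m, chr17:3557580-3557779: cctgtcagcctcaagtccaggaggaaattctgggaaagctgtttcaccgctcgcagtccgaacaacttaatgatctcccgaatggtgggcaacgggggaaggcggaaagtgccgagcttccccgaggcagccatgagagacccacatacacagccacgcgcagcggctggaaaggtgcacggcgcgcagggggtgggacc
Pde10a, chr17:8935720-8935919: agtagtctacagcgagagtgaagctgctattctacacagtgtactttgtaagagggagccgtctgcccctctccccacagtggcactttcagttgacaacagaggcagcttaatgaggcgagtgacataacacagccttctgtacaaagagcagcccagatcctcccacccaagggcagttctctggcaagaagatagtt
Rsph3a, chr17:7945722-7945921: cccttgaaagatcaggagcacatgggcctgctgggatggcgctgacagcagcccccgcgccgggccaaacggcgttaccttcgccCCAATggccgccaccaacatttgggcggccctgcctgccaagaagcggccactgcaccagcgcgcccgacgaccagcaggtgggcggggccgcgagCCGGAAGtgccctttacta

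Morc3, Tfb1m and Rsph3a are promoter loci, and their windows held 24, 14 and 18 CpG dinucleotides with a GC content of 77, 61.5 and 68.5%. The windows of Erg and Pde10a lie in introns and held 1 and 3 CpG at a GC content of 52 and 51%. The Morc3, Tfb1m and Pde10a windows held none of the motifs.

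The segment took a larger share of both trisomic lists than of the euploid list. It held 1.01% of the euploid peaks (interval 0.854 to 1.17), 1.34% of the Ts65Dn peaks (1.21 to 1.47) and 1.56% of the Ts65Dn;Brwd1+/- peaks (1.43 to 1.71). Peak numbers in the segment were 2.50 and 3.03 times those of the euploid list in the Ts65Dn and Ts65Dn;Brwd1+/- lists. The gain was larger on chromosome 17, from 41 to 141 and 172 peaks (3.44 and 4.20 times), than on chromosome 16, from 115 to 249 and 301 peaks (2.17 and 2.62 times). The rest of chromosome 16 stood at 2.03 and 2.21 times and the rest of chromosome 17 at 1.99 and 2.06 times. Among peaks of at least 4-fold enrichment the shares were 0.857, 0.975 and 0.887%. At shared loci fold enrichment was itself lower in the segment of the trisomic lists relative to outside (0.937 and 0.914). At equal fold enrichment, the -log10 q-value of segment peaks differed from that of outside peaks by a median of -0.15, 2.81 and 1.75 in the 3 lists. The full lists rest on a q-value limit, so neither limit need filter both sets alike. The part of either limit in these shares was not tested. With the lists cut to equal length the shares were 1.01, 1.24 and 1.30%.

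**Figure D1:**
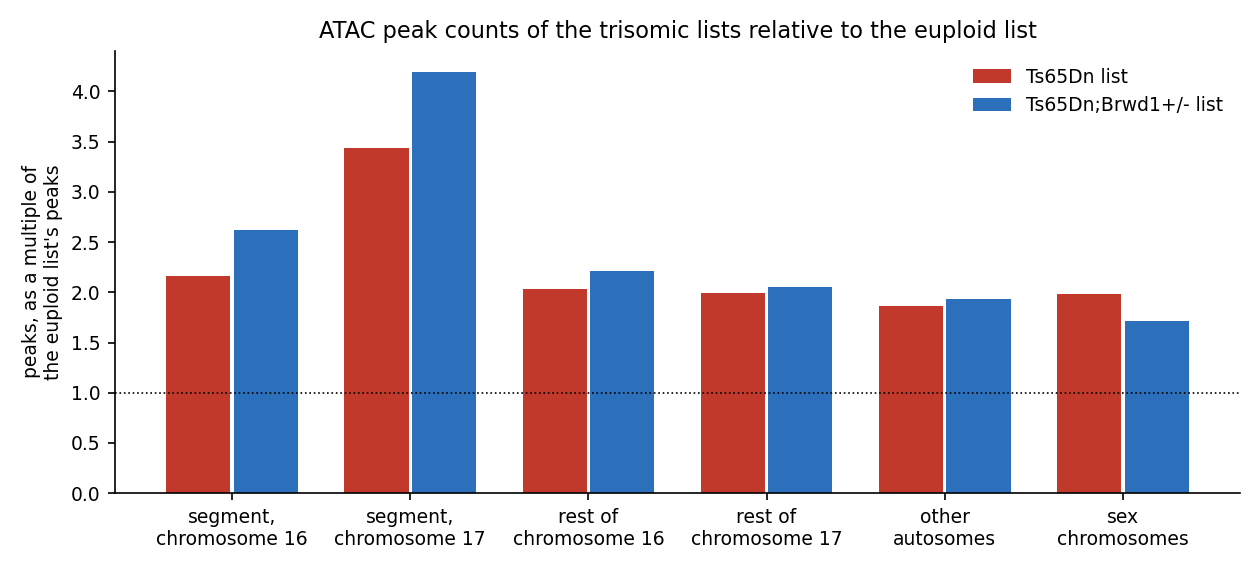
Number of ATAC-seq peaks in the Ts65Dn and Ts65Dn;Brwd1+/- lists relative to the euploid list, for both segment portions and for other stretches of the genome, with 1 pooled list per genotype and no error bars. The chromosome 17 portion reached 3.44 and 4.20 times and the chromosome 16 portion 2.17 and 2.62 times, beside 1.88 and 1.94 times outside the segment.

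Peaks were unevenly spread along both portions. The chromosome 16 portion held 8.60, 18.6 and 22.5 peaks per Mb in euploid, Ts65Dn and Ts65Dn;Brwd1+/- nuclei, and the chromosome 17 portion 6.90, 23.7 and 28.9. On chromosome 16 the megabase from 5 to 6 Mb into the segment, which holds Sod1, Scaf4 and most of Tiam1, was the most crowded and had 21, 34 and 43 peaks. The megabase from 4 to 5 Mb had 1, 2 and 5 peaks. On chromosome 17, counted back from the distal border, the megabase from 3 to 4 Mb had 11, 43 and 41 peaks and the next one 1, 15 and 18.

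Few segment loci of the euploid list went missing in the trisomic lists, and the added loci were mainly away from promoters. Of 149 euploid loci, 147 were also in the Ts65Dn list and 145 in the Ts65Dn;Brwd1+/- list (outside the segment 96.8 and 96.3%). Of 384 Ts65Dn loci, 237 were absent from the euploid list (61.7%, interval 56.7 to 66.6), beside 49.8% of all Ts65Dn loci. Of 466 Ts65Dn;Brwd1+/- loci, 321 were absent from it (68.9%, interval 64.5 to 73.1), beside 51.8% of all loci. The shares were 56.3 and 64.4% on chromosome 16 and 71.2 and 76.6% on chromosome 17. With the lists cut to equal length the segment shares fell to 30.5 and 37.2%, and they exceeded those outside by 10.1 and 15.3 percentage points, beside 12.1 and 17.3 with the full lists. Among peaks of at least 4-fold enrichment the excess was 5.80 and 6.21 points, and its intervals (-2.26 to 13.5 and -3.77 to 16.7) held 0, with the same reserve about both limits.

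By annotation, the shares of Ts65Dn loci absent from the euploid list were 70.0% (63 of 90) in gene bodies of the chromosome 16 portion and 70.2% (40 of 57) in those of the chromosome 17 portion, beside 68.8% outside. Intergenic loci stood higher, at 75.7% (56 of 74) and 86.7% (39 of 45) beside 65.3%. At proximal promoters the intervals of both portions overlapped. On chromosome 16, 8 of 55 promoter loci were absent from the euploid list (14.5%, interval 6.50 to 26.7), and on chromosome 17 9 of 22 (40.9%, interval 20.7 to 63.6), beside 22.7% outside.

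**Figure D2:**
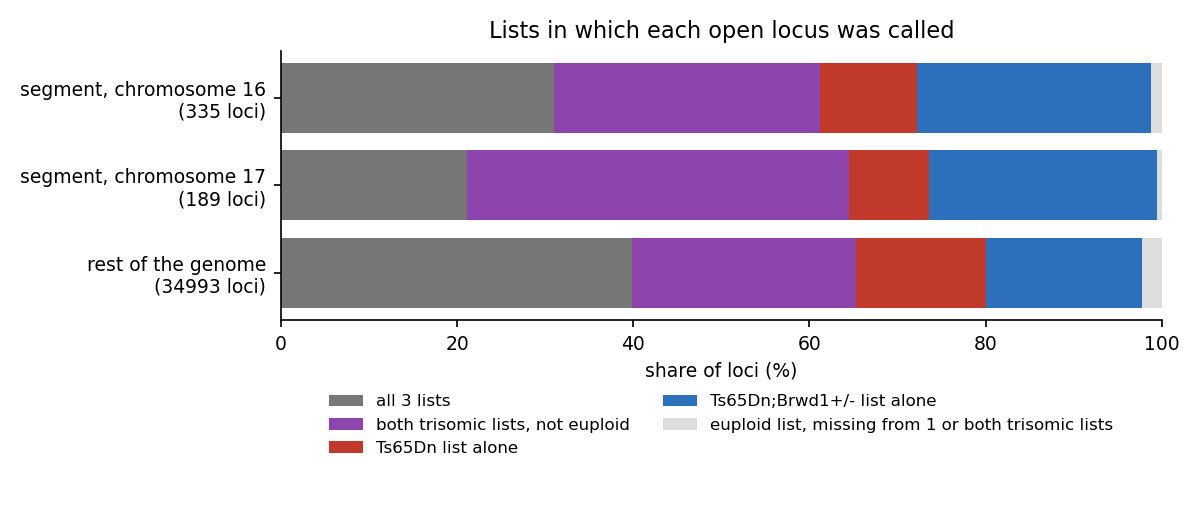
Share of ATAC-seq loci with each presence pattern over the euploid, Ts65Dn and Ts65Dn;Brwd1+/- lists, for the chromosome 16 portion (335 loci), the chromosome 17 portion (189 loci) and the rest of the genome. Loci open in all 3 lists made up 31.0, 21.2 and 39.9% and loci open in both trisomic lists alone 30.1, 43.4 and 25.4%.

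Over the presence patterns, 104 chromosome 16 loci (31.0%) and 40 chromosome 17 loci (21.2%) were open in all 3 lists. Both trisomic lists without the euploid one held 101 (30.1%) and 82 (43.4%). The Ts65Dn list alone held 37 (11%) and 17 (8.99%), and the Ts65Dn;Brwd1+/- list alone 89 (26.6%) and 49 (25.9%). A single segment locus, on chromosome 17, was in the euploid list alone. Outside the segment the 4 main patterns made up 39.9, 25.4, 14.7 and 17.7% of loci. Loci open in both trisomic lists alone were narrower and weaker than those open in all 3, with a median width of 334 beside 626 bp and a median Ts65Dn fold enrichment of 3.63 beside 4.69. Outside the segment the same contrasts were seen (338 beside 594 bp and 3.82 beside 5.27). A locus spans all its joined peaks, so its width in part reflects the number of lists.

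Peaks were assigned to 138 segment genes, and 167 loci had no gene. Of these genes 74 had 1 locus and 15 had 5 or more, and 62 had loci in the trisomic lists alone (44.9%, interval 36.5 to 53.6), beside 30.8% of genes with a locus outside the segment. The 5 genes with most loci, Pde10a, Arid1b, Dscam, Kcnj6 and Hlcs, together held 84. All are long genes, and most of their loci were in the gene body.

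Pde10a encodes a cyclic nucleotide phosphodiesterase and lies at the distal border of the chromosome 17 portion. It had 22 loci, 17 of them in the gene body, of which 9 were in the euploid, 17 in the Ts65Dn and 20 in the Ts65Dn;Brwd1+/- list. Its strongest locus had a fold enrichment of 4.15, 5.53 and 4.24 in the same order. The locus whose sequence is shown had 3.54, 3.33 and 3.09, the lowest Ts65Dn to euploid ratio on this chromosome.

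Arid1b encodes a subunit of the BAF chromatin remodelling complex. It had 19 loci, of which 5 were in the euploid, 17 in the Ts65Dn and 16 in the Ts65Dn;Brwd1+/- list. Its proximal promoter had no euploid peak and a fold enrichment of 2.62 and 2.38 in the trisomic lists. An intronic locus at 5084116 to 5084521 had 2.86, 4.68 and 3.91, among the highest ratios of the segment.

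Dscam, a cell adhesion molecule of neurite self-avoidance, had 17 loci (4, 13 and 15 in the 3 lists). Its promoter was open in the trisomic lists alone, at 3.47 and 2.48. All 4 of its euploid loci lay in the gene body and were kept in both trisomic lists. An intronic one, at 97024325 to 97024802, had a fold enrichment of 3.44, 5.00 and 3.91.

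Kcnj6, a G protein-gated potassium channel subunit, had 14 loci (6, 13 and 11). Its promoter was open in all 3 lists at 3.22, 3.43 and 2.95. Hlcs, which attaches biotin to carboxylases, had 12 loci (6, 9 and 11) with a promoter at 4.46, 5.43 and 4.41. Neither promoter was lower in Ts65Dn than in euploid nuclei.

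Gene groups are read against the segment as a whole, in which 115 of 180 protein-coding genes (63.9%) had a locus. Of its loci with a gene name 34.7% had a euploid, 74.2% a Ts65Dn and 88.8% a Ts65Dn;Brwd1+/- peak. The groups were chosen with earlier results known, and no difference between a group and the segment was tested.

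Genes of the synapse, channels and guidance formed the group with most loci. Peaks marked 16 of its 19 genes, and its 119 loci were spread 36, 97 and 102 over the euploid, Ts65Dn and Ts65Dn;Brwd1+/- lists (30.3, 81.5 and 85.7%). App, the amyloid precursor protein gene, had 8 loci (2, 8 and 7), with a promoter at 4.58, 4.43 and 3.64. Grik1, a kainate receptor subunit, had 8 (1, 5 and 7), and its promoter was listed in Ts65Dn;Brwd1+/- alone at 2.78. Tiam2 and Snx9 on chromosome 17, a Rac exchange factor and a membrane-remodelling sorting nexin, had 6 and 7 loci and none of them in the euploid list. Kcnj15, Kcne2 and Sytl3 had no peak.

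Of 19 genes of transcription and chromatin, 15 had loci, 49 in all (18, 42 and 42, or 36.7, 85.7 and 85.7%). Runx1, a transcription factor known from blood development, had 3 loci and none in the euploid list. Its intronic locus at 92707624 to 92708069 reached 5.24 and 4.87 in the trisomic lists, the highest Ts65Dn value among loci with a gene name that both trisomic lists of the chromosome 16 portion held and the euploid list lacked. Son, Hmgn1 and Zbtb21, an RNA splicing factor, a nucleosome-binding protein and a zinc finger protein, had open promoters in all lists. Gabpa, Olig1, Olig2 and T had no peak, of which Olig1 and Olig2 mark oligodendrocyte lineage.

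Brwd1, for which the design brings in the repro5 mutant allele, had 2 loci. The one at its start, at 96081329 to 96082965, had a fold enrichment of 3.30 in the euploid, 4.21 in the Ts65Dn and 3.88 in the Ts65Dn;Brwd1+/- list. The reads at its summit numbered 53, 120 and 157, over a local background of 15.4, 27.7 and 39.8 reads. Neither was thus lower in Ts65Dn;Brwd1+/- than in Ts65Dn. Among segment loci open in all 3 lists, summit reads were higher in Ts65Dn;Brwd1+/- than in Ts65Dn at 126 of 144 and the background at 144. The second locus was in the Ts65Dn list alone, at 3.04.

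The other gene groups were smaller. Mitochondrial, redox and housekeeping genes had peaks at 17 of 18 members, with 33 loci (22, 26 and 31, or 66.7, 78.8 and 93.9%). Sod1, the cytosolic superoxide dismutase, had its promoter at 3.41, 4.12 and 3.37. All 5 kinase and calcineurin genes had peaks, 19 loci in all (8, 14 and 17). Dyrk1a, a dosage-sensitive kinase, had 7 of these (2, 3 and 6), and Rcan1, a calcineurin inhibitor, had its promoter at 5.62, 6.27 and 4.37.

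Interferon and cytokine receptor genes had peaks at 4 of 6 members, with 5 loci (2, 4 and 5). The promoter of Ifnar1, an interferon receptor subunit, had 5.39, 5.77 and 5.23, and Il10rb and Mx1 had no peak. Junction, matrix and secretion genes had peaks at 13 of 16 members and 29 loci (3, 19 and 23, or 10.3, 65.5 and 79.3%). Adamts1, a secreted protease, had 2 promoter loci in both trisomic lists at 2.90 to 3.48, and neither in the euploid list.

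By the annotation deposited with each peak, proximal promoter peaks were listed at 56, 68 and 77 of 180 protein-coding segment genes (31.1, 37.8 and 42.8%) in euploid, Ts65Dn and Ts65Dn;Brwd1+/- nuclei. Outside the segment the shares were 34.5, 41.8 and 41.2%. On chromosome 16 they were 47, 50 and 56 of 135 genes. On chromosome 17 they were 9, 18 and 21 of 45 genes (20, 40 and 46.7%). The annotation follows each peak's own position, so overlapping peaks of 1 locus can carry different labels, as at App, whose Ts65Dn promoter peak was not labelled proximal. Counted by joined locus, the numbers were 55, 68 and 74 of 180 genes.

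Fold enrichment at loci open in all 3 lists did not rise more in the segment than elsewhere. Both ratios to euploid rest on the same euploid list. The median over the 144 segment loci was 3.88 in the euploid, 4.69 in the Ts65Dn and 3.90 in the Ts65Dn;Brwd1+/- list, and over the 13948 loci outside it was 4.12, 5.27 and 4.42. The median log2 ratio of Ts65Dn to euploid was 0.21 (quartiles 0.09 to 0.35) in the segment and 0.30 outside. It was 0.19 on chromosome 16 and 0.29 on chromosome 17. For Ts65Dn;Brwd1+/- to euploid it was -0.07 and outside 0.06, and for Ts65Dn;Brwd1+/- to Ts65Dn it was -0.27 and outside -0.24.

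Each segment locus was also set against outside loci of the same annotation class and the same decile of euploid fold enrichment. The median difference was -0.10 on the log2 scale for Ts65Dn to euploid, with 104 of 144 loci below their matched median. It was -0.13 for Ts65Dn;Brwd1+/- to euploid (108 of 144 below) and -0.03 for Ts65Dn;Brwd1+/- to Ts65Dn (82 of 144 below). On chromosome 16 the first difference was -0.12 (78 of 104 below) and on chromosome 17 -0.04 (26 of 40 below). The same split gave -0.13 (80 of 104) and -0.17 (28 of 40) for Ts65Dn;Brwd1+/- to euploid, and for Ts65Dn;Brwd1+/- to Ts65Dn -0.0055 (54 of 104) and -0.10 (28 of 40). The portion with the larger median was thus chromosome 16 in the first comparison and chromosome 17 in the others. The 95% intervals over loci, chromosome 16 first, overlapped in each. They were -0.169 to -0.079 and -0.135 to 0.045, -0.175 to -0.086 and -0.245 to -0.027, and -0.050 to 0.032 and -0.141 to -0.016. No difference between the portions was tested.

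A Ts65Dn to euploid ratio of at least 1.5 was reached by 3 of 104 chromosome 16 loci (2.88%) and 4 of 40 chromosome 17 loci (10%), beside 9.76% of all loci. The limit is the ratio of 3 to 2 copies, which fold enrichment need not show, since it is divided by the local background. For Ts65Dn;Brwd1+/- to euploid it was reached by none of 104 and 1 of 40, beside 1.19% of all loci. For Ts65Dn;Brwd1+/- to Ts65Dn it was reached by no locus of the segment or of the genome (0%). Promoters and gene bodies stood apart. At the 60 proximal promoter loci the median log2 ratio of Ts65Dn to euploid was 0.15 beside 0.30 outside, and at the 43 gene body loci it was 0.31 beside 0.31.

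The strongest euploid loci, chosen by that value, were promoters. On chromosome 16 these were Morc3, a chromatin ATPase (6.66, 6.73 and 4.66 in the 3 lists), Tmem50b (6.49, 6.38 and 4.91), Bach1, a haem-regulated repressor (6.40, 6.38 and 6.11), Setd4 (6.28, 5.28 and 4.43) and Wrb, a receptor for tail-anchored proteins (6.15, 7.22 and 5.03). On chromosome 17 they were Tfb1m, which modifies mitochondrial ribosomal RNA (7.47, 7.89 and 6.26), the kinase gene Rps6ka2 (6.27, 6.42 and 5.02) and the pyruvate carrier gene Mpc1 (6.23, 7.09 and 6.08). In Ts65Dn nuclei 5 of the 8 were higher than in euploid nuclei, 3 were lower, and the ratios ran from 0.841 (Setd4) to 1.18 (Wrb). All 8 were lowest in the Ts65Dn;Brwd1+/- list. A choice by the euploid value tends to lower the ratios to euploid. At shared loci outside the segment, not so chosen, the ratio of Ts65Dn to euploid exceeded 1 at 93.0%. That of Ts65Dn;Brwd1+/- exceeded 1 at 62.2% to euploid and at 12.2% to Ts65Dn.

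The ratio of Ts65Dn to euploid on chromosome 16 ran from 0.774 to 1.63. The loci at either end, again chosen by that value, were mostly away from promoters. The highest ratios were those of introns of Erg, an ETS-family factor (3.24, 5.28 and 3.83), and Synj1, a synaptic vesicle phosphatase (3.09, 4.75 and 4.07), a locus near Ttc3 (2.83, 4.32 and 3.10), the Dscam intron given above, and an intron of Gm31641 at 95341120 to 95341757 (4.21, 6.04 and 4.20). The Erg locus lay 68254 bp from the annotated start. The lowest ratios were those of an intergenic locus at 90197651 to 90197962 (4.44, 3.44 and 2.54), the Setd4 promoter, the Cryzl1 promoter (5.61, 5.14 and 5.05), an intron of Pigp (4.35, 4.03 and 4.15) and an intergenic locus at 90712325 to 90712885 (3.16, 2.94 and 2.49).

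On chromosome 17 the highest ratio was that of the promoter of Dynlt1b, a dynein light chain (3.56, 6.88 and 7.13), followed by the Arid1b intron and by a locus of the long non-coding Gm26848 (4.39, 6.75 and 6.41). The lowest were the Pde10a intron shown, an intron of Rps6ka2 (3.56, 3.48 and 3.05) and the promoter of Synj2, a phosphatase related to Synj1 (4.44, 4.47 and 3.66). The strongest loci that the euploid list lacked were the promoters of Rsph3a (7.02 and 5.14) and Rsph3b (6.24 and 5.11), genes of a cilium component, and an intron of Tmem181a at 6256736 to 6257478 (6.13 and 6.12). Of these, Dynlt1b, Gm26848, Rsph3a, Rsph3b and Tmem181a lie in near-identical copies. Only uniquely mapped reads had been kept, so reads of such copies are partly missing or misplaced and these values are uncertain.

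Near-identical copies were frequent on chromosome 17. More than 50% of the 32-base words of 25 loci there, and of no locus on chromosome 16, occurred more than once in the genome. Of these 25, 2 were in the euploid, 10 in the Ts65Dn and 24 in the Ts65Dn;Brwd1+/- list, and 15 were in the last one alone. A cluster of 17 lay between 6222522 and 7025563. In the Dynlt1b, Gm26848, Rsph3a, Rsph3b and Tmem181a loci, 47.9, 76.3, 51.1, 47.2 and 82.4% of the words were repeated. Without the 25 loci, the shares of chromosome 17 loci absent from the euploid list were 70.5 and 74.1%, still above the 56.3 and 64.4% of chromosome 16.

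Fold enrichment is the ratio of the reads at a summit to the local background, each raised by 1. From this ratio and the q-value both could be recovered, and the reads at the summit came out whole for 99.9% of the peaks of each list. This step was added after the lists had been examined. The genome-wide background was 8.56 reads in the euploid, 8.30 in the Ts65Dn and 10.9 in the Ts65Dn;Brwd1+/- list, so the last list was the deepest by 1.28 times. The ratios are therefore given relative to the median of the loci outside the segment.

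The reads at the summit and the background both rose in the segment beyond the rest of the genome, which the fold enrichment did not show. At loci open in all 3 lists the median summit held 44, 81 and 96 reads in euploid, Ts65Dn and Ts65Dn;Brwd1+/- nuclei, and 48, 68 and 78 outside. The median background was 10.7, 16.8 and 24.6 reads, and 10.7, 11.9 and 16.5 outside. The euploid values of the segment thus lay near those of the genome, and only the trisomic ones stood above.

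Relative to outside, the summit reads of Ts65Dn to euploid rose 1.27-fold, by 1.24 on chromosome 16 and 1.35 on chromosome 17. The background rose 1.41-fold, by 1.39 and 1.44. For Ts65Dn;Brwd1+/- to euploid the summit reads rose 1.25-fold (1.23 and 1.34) and the background 1.43-fold (1.41 and 1.53). For Ts65Dn;Brwd1+/- to Ts65Dn the values were 1.00 and 1.04. The rest of chromosome 16 had background ratios of 0.998 and 1.03 and the rest of chromosome 17 of 1.02 and 1.07.

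**Figure D3:**
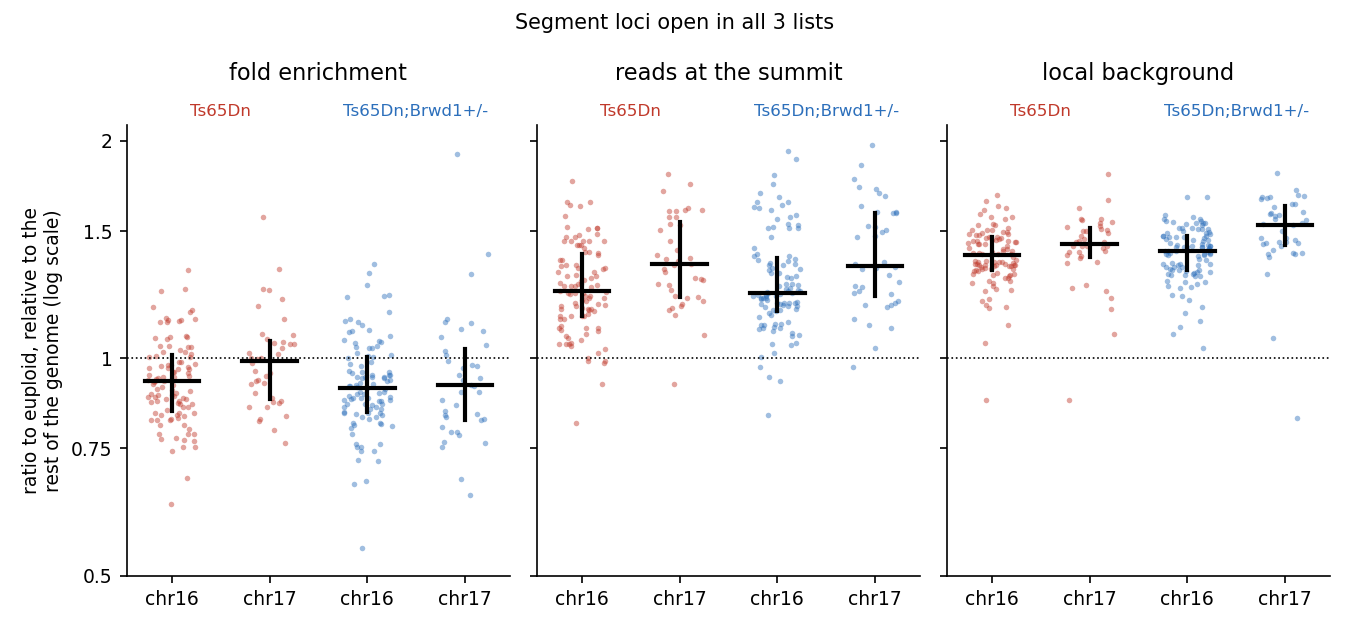
Ratios to euploid at segment loci open in all 3 lists (104 on chromosome 16, 40 on chromosome 17), each divided by the median ratio outside the segment and drawn on a log scale, with 1 point per locus and a bar for the median with quartiles. Median fold enrichment lay between 0.911 and 0.991, whereas summit reads centred between 1.23 and 1.35 and local background between 1.39 and 1.53.

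The rise was shared by nearly all loci. For Ts65Dn to euploid, the summit ratio exceeded the outside median at 99 of 104 chromosome 16 loci and 39 of 40 chromosome 17 loci, and the background ratio at 103 of 104 and 39 of 40. The counts at 1.5 use ratios not divided by the outside median, which was itself 1.375 for the summit and 1.11 for the background. They are thus not counts of a 1.5-fold rise relative to outside. A summit ratio of at least 1.5 was reached by 87 of 104 (83.7%) and 38 of 40 loci (95%), beside 30.0% of all loci. A background ratio of at least 1.5 was reached by 61 of 104 (58.7%) and 33 of 40 (82.5%), beside 0.725% of all loci. For Ts65Dn;Brwd1+/- the deeper list put 61.4% of summit ratios and 57.9% of background ratios of all loci at 1.5 or more to euploid, and 3.32 and 23.1% to Ts65Dn, so counts past 1.5 say little there.

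By class, the ratios are again not divided by the outside median. For Ts65Dn to euploid, the 60 promoter loci of the segment had a median summit ratio of 1.72 and a background ratio of 1.59. Promoters outside had 1.40 and 1.13. The 43 gene body loci had 1.78 and 1.49, beside 1.33 and 1.06. Beside their outside counterparts, the background rose by a like factor in both classes, and the summit reads rose more in gene bodies. At the Morc3 promoter the summit held 84, 121 and 132 reads over a background of 11.8, 17.1 and 27.5. At the Erg intron it held 31, 67 and 78 over 8.88, 11.9 and 19.6. At the Dynlt1b promoter the background was that of the whole genome in every list (8.56, 8.30 and 10.9), with 33, 63 and 84 reads at the summit.

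The change in background was seen close to the borders. The locus nearest to the chromosome 16 border, at the promoter of the mitochondrial ribosomal gene Mrpl39, lay 17.3 kb inside and had a Ts65Dn to euploid background ratio of 1.42 relative to outside, with 1.22 for the summit. Atp5j, an ATP synthase subunit, followed at 117 kb with 1.57 and 1.17. The next 2 loci, both of App at 420 and 455 kb, had 1.18 and 1.44 for the background and 1.07 and 1.10 for the summit. The nearest loci beyond the border, at 676 and 2056 kb, had 0.875 and 0.875 for the background and 0.948 and 0.938 for the summit, and the next 2, at 3517 and 6141 kb, had a background ratio of 1.01 and 1.02. A value of 0.875 arises where the background is the genome-wide one in both lists.

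On chromosome 17 the 5 loci nearest to the border all lay in Pde10a. The nearest, 51.0 kb inside, had a background ratio of 1.24 and a summit ratio of 0.920, and the next 4 had background ratios from 1.21 to 1.56. Beyond the border an intergenic locus at 249 kb had 0.875, a locus of Qk at 1333 kb 1.12 and one of Park2 at 1853 kb 1.07. Their summit ratios were 1.31, 1.21 and 1.04, so on this side the summit ratio alone did not part the loci inside from those beyond.

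**Figure D4:**
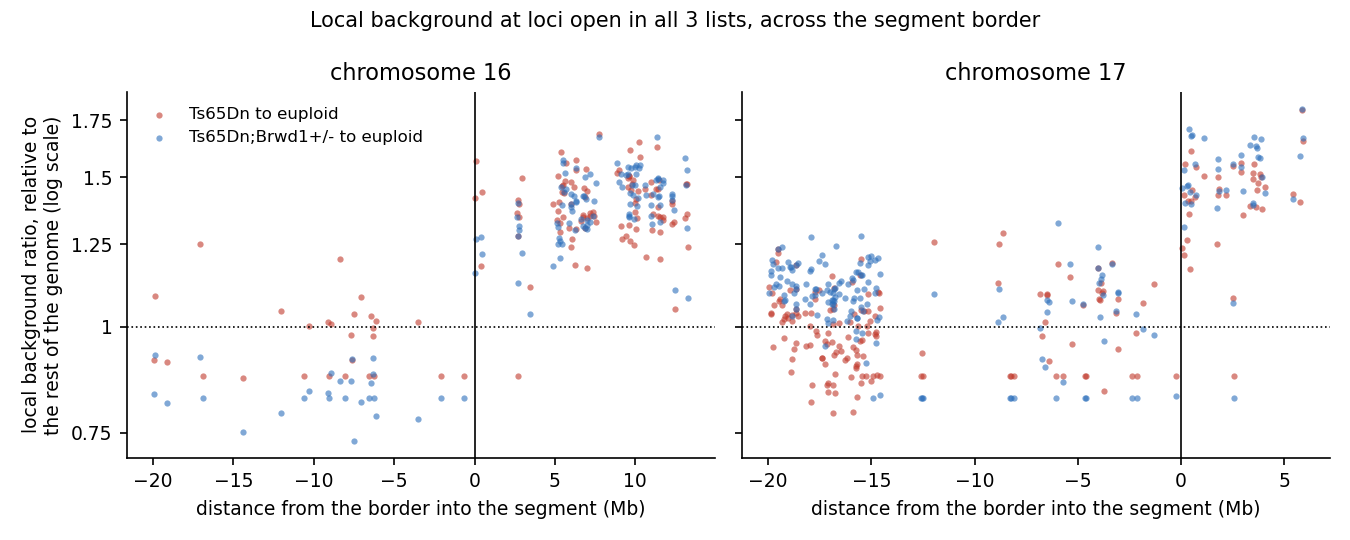
Local background at loci open in all 3 lists, as the ratio to euploid relative to the median outside the segment (log scale), against the distance in Mb from the segment border, with 1 point per locus and positive distances inside. Red points are Ts65Dn and blue points Ts65Dn;Brwd1+/-; on chromosome 16 the Ts65Dn values were 1.42, 1.57, 1.18 and 1.44 at the first 4 loci inside and 0.875, 0.875, 1.01 and 1.02 at the first 4 beyond.

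Over all peaks of each list, and not just shared ones, the median background relative to the genome-wide one was 1.27, 1.73 and 1.88 on chromosome 16 and 1.15, 1.56 and 1.62 on chromosome 17 in euploid, Ts65Dn and Ts65Dn;Brwd1+/- nuclei. Outside it was 1.24, 1.29 and 1.36. The reads had been solved from the fold enrichment and the q-value, so the deposited q-values show the same rise in another form and are no further evidence of it. At equal fold enrichment, the -log10 q-value of segment peaks differed from that of outside peaks by a median of -0.15 in the euploid, 2.81 in the Ts65Dn and 1.75 in the Ts65Dn;Brwd1+/- list. The Ts65Dn difference was 3.31 on chromosome 16 and 1.96 on chromosome 17, and it was -0.65 on the rest of chromosome 16 and 0.38 on the rest of chromosome 17. The part of read number in the added loci was not tested.

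**Figure D5:**
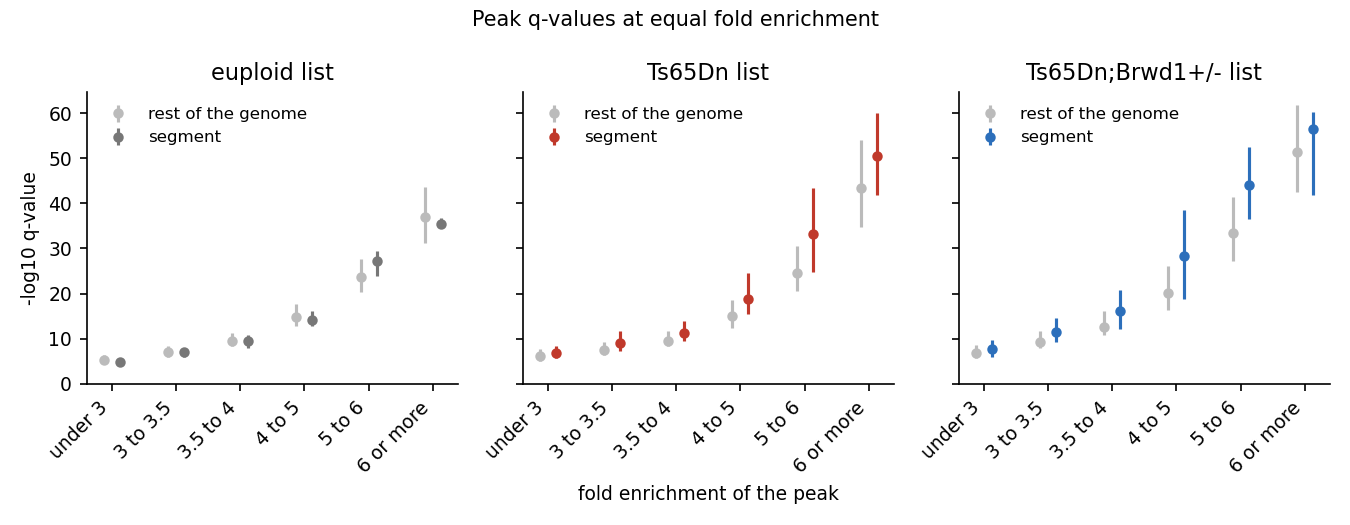
Median -log10 q-value of ATAC-seq peaks by class of fold enrichment, for the segment and the rest of the genome in each list, with bars for the quartiles over peaks. At equal fold enrichment the segment differed by -0.15 in the euploid, 2.81 in the Ts65Dn and 1.75 in the Ts65Dn;Brwd1+/- list.

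SMARCA2/4, the ATPase subunits of the BAF complex, gave a readout that did not enter the choice of loci. The euploid ChIP-seq list had 250 of its 22667 peaks in the segment (1.10%, interval 0.971 to 1.25), the Ts65Dn list 26 of 1290 (2.02%, 1.32 to 2.94) and the Ts65Dn;Brwd1+/- list 51 of 1873 (2.72%, 2.03 to 3.56). These were again 1 list per genotype, and the trisomic ones were far shorter and held peaks with q-values up to 1. A euploid SMARCA2/4 peak overlapped 106 of 524 segment loci (20.2%, interval 16.9 to 23.9), beside 24.7% outside. The order was the reverse at proximal promoters, where 39 of 89 segment loci had one (43.8%, interval 33.3 to 54.7), beside 36.1% outside, and such promoters were 89 of 524 loci in the segment and 11127 of 34993 outside. Among peaks of at least 4-fold enrichment the shares were 31.3% in the segment and 30.9% outside, and with lists of equal length 33.5 and 33.2%, so the lower segment share was not found under either setting.

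The overlap differed by presence pattern. Of segment loci open in all 3 lists 71 of 144 had a euploid SMARCA2/4 peak (49.3%, interval 40.9 to 57.8), beside 39.3% outside. Of loci open in both trisomic lists alone, 25 of 183 had one (13.7%, interval 9.04 to 19.5), beside 21.1% outside. On chromosome 16 the same shares were 45.2 and 11.9% and on chromosome 17 60 and 15.9%. The Bach1, Setd4, Rps6ka2 and Mpc1 promoters overlapped such a peak, and the Morc3, Tmem50b, Wrb and Tfb1m promoters did not.

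In the central 200 bases of the loci, 8 motifs were searched on both strands. A match is a description of the letters and not of a bound factor. The segment and outside shares were 23.9 and 23% for the CCAAT box (CCAAT), 27.5 and 25.2% for the E-box (CAGATG), 9.73 and 9.66% for the AP-1 site (TGANTCA) and 1.53 and 1.62% for the NRF1 core (GCGCATGC). They were 3.05 and 4.90% for the ETS core (CCGGAAG), 4.20 and 7.01% for the CTCF core (AGGGGGC), 0.382 and 0.983% for the cyclic AMP response element (TGACGTCA) and 0.382 and 0.586% for the MEF2 core (CTATTTTTA). At proximal promoters, which were a smaller part of the segment loci, the shares were 12.4 and 12.2% for the ETS core and 10.1 and 10.8% for the CTCF core. The CTCF shares were 3.51 (interval 0.428 to 12.1) and 8.22% at other promoters, 1.90 (0.519 to 4.78) and 3.74% in gene bodies and 4.19 (1.70 to 8.45) and 5.46% between genes, and each interval held the outside share. The ETS core was at none of 57 other promoters of the segment (interval up to 6.27%), beside 2.43% outside. The median GC content was 53% in the segment and 55% outside, and 59 and 62% at loci open in all 3 lists.

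RNA of the segment genes with a euploid promoter peak was compared between Ts65Dn and euploid cultures. The cultures differ from the sorted nuclei in age, brain region and cell make-up, so the 2 assays are set side by side only by gene. Brain cultures are bulk samples, so fewer cells of a type and less RNA per cell cannot be told apart. The methods state that cortices of single embryos were dissociated apart. They also state that samples were not pooled in molecular work, although they describe pooled ChIP-seq replicates. The labels, in contrast, call each culture library a pool of males and females. Whether the 3 libraries of a genotype are separate embryos is thus not settled, and the p-values measure the spread between these libraries. Xist, the RNA of the inactive X chromosome, was at 0.526 to 1.12 CPM, the count scaled to the library total, in euploid and Ts65Dn cultures and at 1409 to 1982 CPM in Ts65Dn;Brwd1+/- cultures. Its near absence from the first 2 genotypes goes against their label of pooled males and females. Cell type markers that lie outside the segment are set beside all 17173 genes tested, of which 25.6% were higher and 21.1% lower in Ts65Dn. Only the markers of neurons and interneurons were all called in 1 direction. All 10 neuronal markers were lower in Ts65Dn cultures (edgeR, adjusted p under 0.05), with a summed level of 3859 to 4842 CPM in euploid and 1210 to 2602 in Ts65Dn cultures. All 5 interneuron markers were lower too (450 to 495 and 97.8 to 181 CPM). Of 5 astrocyte markers, Aqp4, Aldh1l1 and Gja1 were higher and Slc1a3 was lower (2325 to 3032 and 3024 to 3507 CPM). Of 6 oligodendrocyte lineage markers (5 passed the filter on low counts) 1 was lower (42.5 to 50.1 and 36.3 to 50.6 CPM), of 5 microglial markers (3 passed) 2 were lower (6.15 to 9.32 and 2.21 to 4.04 CPM) and of 5 endothelial markers (2 passed) none was called (2.18 to 2.94 and 2.12 to 2.47 CPM), with Cldn5 at 0 throughout. The part of these markers' cells in the levels of the segment genes was not tested.

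Of 56 segment genes with a euploid promoter peak tested, 42 were higher in Ts65Dn (quasi-likelihood test of edgeR at an adjusted p of 0.05), beside 25.6% of all 17173 genes tested, and 3 were lower, beside 21.1%. Without euploid library 1 or 2 the number lower was 1, without Ts65Dn library 1 it was 6, and without Ts65Dn library 2 or 3 it was 2. With the 6 euploid and Ts65Dn libraries alone it was 1, with no filter on low counts 5 and with DESeq2 4. The median log2 fold change of the 56 genes was 0.57, beside 0.04 over all genes. With the replicate number as a block, 42 were higher and 5 lower, the added genes being Kcnj6 and Synj1 (edgeR adjusted p = 0.040 and 0.014, beside 0.083 and 0.073 without the block).

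By chromosome, 36 of 47 genes were higher and 3 lower on chromosome 16, and 6 of 9 were higher and none lower on chromosome 17. Of 26 segment genes with a proximal promoter peak by annotation in a trisomic list and not the euploid one, 19 were higher and 3 lower, with a median log2 fold change of 0.58. In 3 of them (Donson, Pde10a and Scaf8) the promoter locus did hold a euploid peak with another label. Of 32 protein-coding segment genes with no peak so annotated, 25 were higher and none lower (78.1% higher, beside 75% of the 56 genes), and the median was 1.01. The difference between these classes was not tested. Counted by joined locus, 41 of 55 genes with a euploid peak were higher, 15 of 21 with trisomic peaks alone and 30 of 38 with none.

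Morc3, with the strongest euploid promoter of chromosome 16, was at 38.2, 37.2 and 37.0 CPM in the euploid and 54.6, 52.6 and 56.1 in the Ts65Dn cultures. All 3 Ts65Dn cultures lay above all euploid ones (log2 fold change 0.54, SE 0.07, edgeR adjusted p = 2.90e-04). Tfb1m was at 5.19, 4.61 and 5.74 CPM in euploid and 8.94, 7.80 and 10.9 in Ts65Dn cultures, again without overlap (log2 fold change 0.84, SE 0.17, edgeR adjusted p = 0.0029). Setd4, whose promoter had the second lowest ratio of fold enrichment, was at 7.23, 7.37 and 7.60 CPM beside 9.15, 7.41 and 6.44, and the groups overlapped (log2 fold change 0.05, SE 0.15, edgeR adjusted p = 0.79).

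The 3 lower genes were Pcp4, Tiam1 and B3galt5, and the promoters of all 3 were open in every list. Pcp4, a calmodulin-binding protein of neurons, was at 8.45, 10.3 and 9.15 CPM in euploid and 6.21, 5.58 and 3.71 in Ts65Dn cultures, without overlap (log2 fold change -0.85, SE 0.18, edgeR adjusted p = 0.0037). Its promoter had a fold enrichment of 3.83, 5.28 and 3.42. Tiam1, a Rac exchange factor of dendritic spines, was lower by a log2 fold change of -0.50 (SE 0.17, edgeR adjusted p = 0.033), and B3galt5, a galactosyltransferase, by -0.37 (SE 0.13, edgeR adjusted p = 0.037). The groups did not overlap at Tiam1 and did at B3galt5. Tiam1 lost the call without euploid library 1 or 2 (edgeR adjusted p = 0.089 and 0.078), and B3galt5 without euploid library 1 or 2 or Ts65Dn library 2 or 3 (0.057 to 0.13). With only the 6 euploid and Ts65Dn libraries in the fit, 1 of the 56 genes was called lower.

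Among genes with a proximal promoter peak in a trisomic list and not the euploid one, Grik1 was at 26.2, 23.6 and 25.9 CPM in euploid and 12.3, 11.9 and 5.96 in Ts65Dn cultures (log2 fold change -1.33, SE 0.21, edgeR adjusted p = 8.53e-04). Snx9 was higher (log2 fold change 1.42, SE 0.12, edgeR adjusted p = 2.72e-05). Pde10a, whose euploid promoter peaks were annotated to the wider promoter, was lower (log2 fold change -0.47, SE 0.17, edgeR adjusted p = 0.039), a call that was lost without any 1 of the 3 euploid libraries (0.051 to 0.093). Runx1, with loci in the trisomic lists alone and no proximal promoter peak, was higher. It was at 0.485, 0.351 and 0.546 CPM in euploid and 5.43, 8.55 and 8.65 in Ts65Dn cultures (log2 fold change 4.02, SE 0.28, edgeR adjusted p = 6.37e-06).

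Olig1 and Olig2, transcription factors of oligodendrocyte lineage that lie in the segment and had no peak in any list, were at 193 to 251 and 36.6 to 43.5 CPM in euploid and at 385 to 500 and 55.7 to 59.2 CPM in Ts65Dn cultures. Brwd1 was at 93.2, 85.9 and 89.2 CPM in euploid and 129, 126 and 125 in Ts65Dn cultures (log2 fold change 0.50, SE 0.08, edgeR adjusted p = 7.87e-04). It was at 145, 146 and 124 CPM in the cultures labelled Ts65Dn;Brwd1+/-. Brwd1 was thus not lower in the cultures labelled Ts65Dn;Brwd1+/- than in Ts65Dn, and no contrast with them is given.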

How the data were processed

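ATAC-seq, SMARCA2/4 ChIP-seq and RNA-seq files of 42 samples were used as deposited. Per the labels and methods, the authors aligned reads to mm10 with HISAT2, kept unique reads, removed duplicates with SAMtools and called peaks with MACS. The deposited peak lists give a fold enrichment (a linear ratio of summit to local background) and a q-value for each peak, with an annotation by diffReps. There was 1 list per genotype, and how the 3 libraries were pooled is not given in the sources used here. Columns of peak annotation were used as deposited, and centres of named loci were also placed on GENCODE for GRCm38.

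The deposited RNA files hold raw counts of reads per gene for 9 culture libraries, with totals from 17270070 to 25892802. The authors named featureCounts, whereas the files end in the summary lines of htseq-count, so the handling of ambiguous reads is uncertain. The strand setting is not given in the sources used here, so antisense and overlapping genes cannot be told apart. Lines that name no gene held 37.4 to 40.0% of reads and were left out.

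Loci were joined, paired and matched in Python 3.11.15 (pandas 2.3.3, numpy 2.4.6, scipy 1.17.1), with figures drawn in matplotlib 3.10.9. Summit reads and local background were solved from the fold enrichment, taken with a pseudocount of 1, and the q-value, with a tolerance of 0.1 reads for a whole number. On simulated peaks all whole values recovered were correct (100%). RNA was tested in R 4.3.3 with edgeR 4.0.16 (limma 3.58.1), TMM scaling, filterByExpr and genotype as the factor, in 1 fit of all 9 libraries, at a Benjamini-Hochberg adjusted p of 0.05. On simulated counts, in which 200 of 17173 genes were changed by 1.5-fold, 55.5% of these were called and 2.63% of calls were false. In the data 25.6% of genes were called higher and 21.1% lower, so these rates need not hold there. DESeq2 1.42.0 served as an alternative.

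Named loci were the 5 (chromosome 17: 3) with the highest euploid fold enrichment, the highest and the lowest Ts65Dn to euploid ratio, and the highest Ts65Dn value among loci of both trisomic lists alone, with the 5 genes of most loci and the members of 6 gene groups. The coordinates, lists and members were chosen with earlier results of these data known. Same-numbered euploid and Ts65Dn cultures deviated together (r = 0.13, 0.21 and 0.26 across genes, all over 0.1). Differently numbered ones were not compared, so these values cannot show that the replicate number pairs the cultures. As a hint from the data, the number was used as a block in an alternative fit, and the main fit held genotype alone. With the Ts65Dn;Brwd1+/- cultures, r ran from -0.16 to 0.28 and was negative for replicate 2. A block changed the calls of 2 genes.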

Additional observations from a re-analysis of the deposited data

How the results depend on the processing

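Of 232 pairs of a result and another setting, 197 stayed within the spread of the main value, 33 moved and 2 reversed. For single genes in RNA, 33 of 546 pairs changed the call and 1 the sign, and for named loci 1 of 105 pairs moved. The cause of these changes was not tested.

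With peaks of at least 4-fold enrichment, the segment shares of the Ts65Dn and Ts65Dn;Brwd1+/- lists were 0.975 and 0.887%, the log2 peak count ratio relative to outside was 0.049 for Ts65Dn;Brwd1+/- to euploid and turned to -0.14 for Ts65Dn;Brwd1+/- to Ts65Dn, the share of Ts65Dn;Brwd1+/- loci absent from the euploid list was 41.7%, the differences from outside were 5.80 and 6.21 percentage points, the median log2 ratio of fold enrichment of Ts65Dn to euploid was 0.13, and 31.3% of loci had a euploid SMARCA2/4 peak. With lists of equal length, the Ts65Dn;Brwd1+/- share was 1.30%, its count ratio to euploid 0.37, the shares absent from the euploid list 30.5 and 37.2%, and the SMARCA2/4 share 33.5%. With borders moved inwards by 500 kb, the trisomic shares were 1.14 and 1.37%. With only the rest of chromosomes 16 and 17 as outside, the shares were 14.3, 17.2 and 19.3%, the matched difference of Ts65Dn to euploid was -0.17, the summit reads were higher by 0.28 and 0.25 and the background of Ts65Dn;Brwd1+/- to euploid by 0.43 on the log2 scale, and the background of Ts65Dn;Brwd1+/- to Ts65Dn turned to -0.011. In windows of 500 bases the shares with a motif were 17% (AP-1), 7.82% (ETS), 43.9% (CCAAT), 44.8% (E-box) and 9.35% (CTCF). In loci open in all 3 lists they were 4.86% (AP-1), 3.47% (NRF1), 0% (MEF2), 6.94% (ETS), 19.4% (E-box) and 6.94% (CTCF).

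Leaving out 1 culture library at a time gave 40 to 43 genes higher, 1 to 6 lower and a median log2 fold change of 0.53 to 0.57. The log2 fold change of Setd4 ranged from -0.097 (without Ts65Dn replicate 1) to 0.17 (without Ts65Dn replicate 3). With the replicate block 42 genes were higher and 5 lower, with a median of 0.57, and among the 56 genes no call but those of Kcnj6 and Synj1 changed. With DESeq2 41 were higher and 4 lower, with no filter 41 and 5, and with 6 libraries 41 and 1. Of 2 settings chosen after seeing the data, 6 libraries with the block gave 41 and 5, and promoters counted by joined locus 41 and 4. The peak lists have no replicates, so intervals cover counting error only, and a locus missing from the euploid list was not called there, which does not show it closed.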
